A study of Arabidopsis thaliana with 30 samples.

Results

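The genes described are 9 Arabidopsis loci of nitrate transport, nitrate reduction and siroheme synthesis, taken by name from the 27588 loci that were quantified. They are the nitrate reductases NIA1 (AT1G77760) and NIA2 (AT1G37130), the nitrite reductase NIR1 (AT2G15620), the siroheme enzyme UPM1 (AT5G40850) and the transporters NRT1.1 (AT1G12110), NRT1.5 (AT1G32450), NRT1.7 (AT1G69870), NRT1.8 (AT4G21680) and NRT2.1 (AT1G08090). Rosettes of Arabidopsis thaliana were profiled by RNA-seq in 5 genotypes, each given bicarbonate or water, with 3 libraries in each of the 10 groups. The genotypes were oePsbSoeβCA1βCA2 and oePsbSoeβCA1, which carry βCA transgenes in the PsbS-overexpressing background, oePsbS itself, the PsbS-lacking mutant npq4-1, and the wild type Col-0. From 2 weeks of age plants received 10 ml of 3 mM sodium bicarbonate, brought to pH 7.0 with potassium hydroxide, every 2 days, or the same volume of water, and were used at 4 weeks. All grew under light of 120 µmol per square metre per second with a day of 16 h, at 21 °C. Sodium and the buffer came with the bicarbonate and cannot be told apart from it.

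The 35S promoter, active in most tissues, drove βCA1 in oePsbSoeβCA1, and a ROLD and a 35S promoter drove the βCA pair in oePsbSoeβCA1βCA2. Several independent lines of each construct existed, and which of them entered a library is not given in the sources used here. The methods describe biological samples with technical repeats for the transcript work but do not say whether the libraries of 1 group were single plants, pools or different lines, so p-values measure only the spread between these libraries.

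Depth was 15346368 to 18326430 reads a library. Levels between genes are compared in TPM, a share of all transcripts that takes account of their length, and levels of 1 gene between libraries in CPM, read counts scaled to library size with TMM. PsbS was at 0.12 to 6.28 CPM in npq4-1 libraries, against 1366 to 1894 CPM in Col-0 libraries. PsbS reads of the PsbS-overexpressing genotypes are not given here, so this check covers only the npq4-1 and Col-0 labels. Reads of βCA1 reached 10936 to 16800 CPM in 5 of the 6 oePsbSoeβCA1 libraries but 2408 CPM in the library labelled oePsbSoeβCA1 bicarbonate replicate 3, against 2899 to 4287 CPM in Col-0 libraries. That library goes against its label, so the main member results that rest on it are also given without it. In the libraries labelled oePsbSoeβCA1βCA2, βCA1 was at 3341 to 4070 CPM, within the Col-0 range, and βCA2 at 1604 to 1919 CPM, against 1184 to 1833 CPM in Col-0 libraries. With water βCA2 was higher in them than in Col-0 by 0.53 on the log2 scale (adjusted p = 0.0217 in edgeR's quasi-likelihood test) and than in oePsbS by 0.52 (adjusted p = 0.000922). With bicarbonate its difference from Col-0 was 0.29 and did not pass (adjusted p = 0.174 in edgeR). There it averaged 1878 CPM in them and 1886 CPM in oePsbS, and βCA1 averaged 3685 CPM in them and 3921 CPM in oePsbS, with log2 fold changes of -0.01 and -0.09 that did not pass (adjusted p = 0.979 and 0.894 in edgeR). The 5 rosette leaf markers summed to 31414 to 43145 CPM and the 12 root markers to 6.44 to 46.2 CPM, nearly all of it PYK10.

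Nitrate enters root cells through transporters of the NRT1 and NRT2 families, moves up the xylem, and is reduced mostly in leaves of many plants. Nitrate reductase turns nitrate into nitrite in the cytosol, and nitrite reductase turns nitrite into ammonium in the plastid with electrons from ferredoxin and siroheme as a cofactor, so the pathway draws directly on photosynthetic reducing power. Its genes are known for their response to nitrate, light, sugars and the time of day.

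The upstream stretches of the 2 nitrate reductase genes are shown because these genes moved together more closely than any other members, as described below. Each stretch is the 250 bases before the annotated gene start, in the RefSeq annotation of build TAIR10.1, whose transcript lengths equalled those in the deposited files for all 11 transcripts of the 9 genes. NIA1 lies on the minus strand of chromosome 1 at 29235721 to 29239484 and NIA2 on the plus strand of chromosome 1 at 14158452 to 14161938. Capitals mark the longest stretch of letters, 10 bases, that both hold, found after the sequences were read and present on either strand in 0.164% of the 27443 gene windows of this length. How often other pairs of windows share a stretch as long was not counted, so this share is no measure of a common element.
NIA1, chr1:29239485-29239734, minus strand: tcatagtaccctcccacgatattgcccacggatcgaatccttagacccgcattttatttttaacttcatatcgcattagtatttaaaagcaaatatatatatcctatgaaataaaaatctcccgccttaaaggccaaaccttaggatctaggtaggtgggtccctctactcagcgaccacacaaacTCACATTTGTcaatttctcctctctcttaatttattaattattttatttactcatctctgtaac
NIA2, chr1:14158202-14158451, plus strand: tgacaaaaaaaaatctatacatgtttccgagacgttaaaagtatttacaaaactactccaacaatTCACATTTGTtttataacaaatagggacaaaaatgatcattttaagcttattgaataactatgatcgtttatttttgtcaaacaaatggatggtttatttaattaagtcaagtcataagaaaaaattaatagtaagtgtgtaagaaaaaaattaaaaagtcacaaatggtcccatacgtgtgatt

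Among the 9 genes, none held the nitrate-responsive element GACNCTTNNNNNNNNNNAAG or the G-box CACGTG on either strand in the 1000 bases before the start, where 0.499% and 14.8% of all genes held them. The evening element AAATATCT, a motif of clock-regulated promoters, was found on either strand in 4 of the 9 genes, against 15.3% of all genes. It is shown with 11 bases on each side, in the direction of the gene and with the element in capitals, because a clock gene index was higher with bicarbonate in several genotypes. AGATATTT is the same element read on the opposite strand. The matches describe letters only, and neither other spellings nor sequence within or behind the genes was searched.
NRT1.7, chr1:26314813-26314842: ttagaattgaaAAATATCTagacatggaat
NIR1, chr2:6809908-6809937: aattatgaaatAAATATCTcatactaatca
NIR1, chr2:6809427-6809456: ttgtttaatcaAGATATTTttaccttatga
NRT1.5, chr1:11720645-11720674: agaaaaattgaAGATATTTatttagttgga
NRT2.1, chr1:2523156-2523185: aatgttaaaatAGATATTTtcaccatcaca

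Levels of the 9 genes spanned more than 3 orders of magnitude in TPM, with the reductases on top and the root transporters at the bottom. NIA2 had a median of 274.6 TPM over the 30 libraries (179 to 384), NIR1 132 TPM (108 to 165) and NIA1 51.5 TPM (31.3 to 77.2). NRT1.1, a dual-affinity nitrate transporter and sensor, had 42.3 TPM (34.1 to 52.4) and UPM1, the methyltransferase that opens the branch to siroheme, 36.3 TPM (26.0 to 46.1). NRT1.7, which loads nitrate into the phloem of source leaves, had 15.1 TPM (8.14 to 19.7) and NRT1.5, which loads root xylem, 6.23 TPM (3.86 to 8.11). NRT2.1, the main high-affinity uptake transporter of roots, had 0.257 TPM (0.0637 to 0.640) and NRT1.8, which takes nitrate out of the xylem, 0.223 TPM (0 to 1.36). The order NIA2, NIR1, NIA1 held in 30 of 30 libraries, as did UPM1 above NRT1.7, NRT1.7 above NRT1.5 and NRT1.5 above NRT2.1. The neighbours NIA1 and NRT1.1 stood in that order in 22 of 30 libraries, NRT1.1 and UPM1 in 25, and NRT2.1 and NRT1.8 in 17, so these neighbours did not differ beyond their spread in every library.

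**Figure D1:**
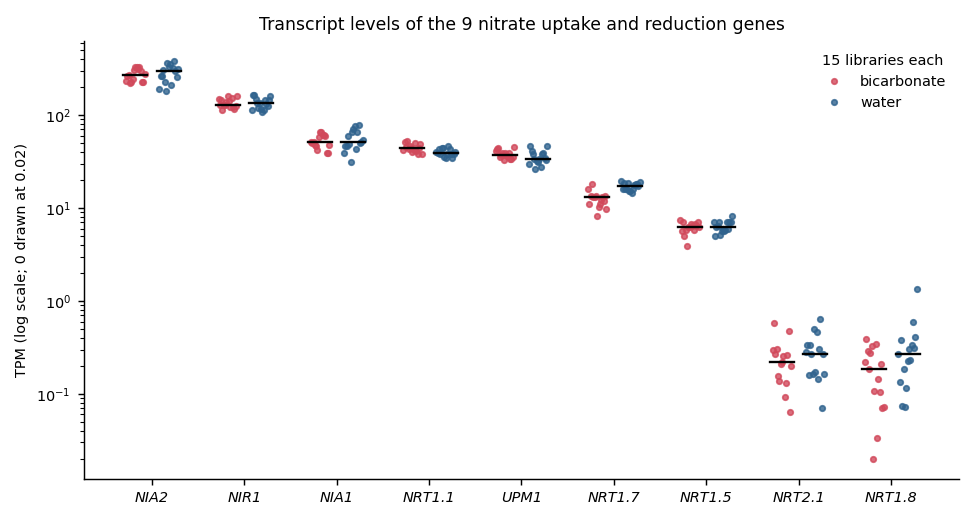
TPM (log axis) of the 9 genes in 15 bicarbonate libraries (left of each pair) and 15 water libraries (right), with a bar at the median; the 1 library at 0, for NRT1.8, is drawn at the bottom. NIA2, NIR1 and NIA1 lie above the transporters other than NRT1.1, and NRT2.1 and NRT1.8 lie far below the rest.

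The lowest members rested on few reads. NRT2.1 had 2 to 21 reads a library and NRT1.8 had 0 to 38, where a count of 0 allows up to 3 reads. Both genes were left out by the low-count filter in fits of 6 libraries and entered only the fit of all 30. UPM1 reads were divided by the authors' software among 3 transcripts with shares that varied widely, from 19.2% to 49.1% for one of them, so only the sum was used.

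Across the 10 groups, 5 of the 9 genes differed by edgeR's quasi-likelihood test with Benjamini-Hochberg adjustment at 0.05, against 28.7% of the 18999 genes tested. These were NRT1.7 (adjusted p = 0.000691), NIA1 (0.00444), NRT1.8 (0.0260), NIA2 (0.0336) and NRT1.1 (0.0367). NRT1.5 (0.0629), NIR1 (0.316), UPM1 (0.354) and NRT2.1 (0.508) did not pass in edgeR. DESeq2 called 6. The call of NRT1.1 was lost (adjusted p = 0.054) when the library labelled oePsbSoeβCA1 bicarbonate replicate 3 was dropped, and with 8 other libraries left out, at most 0.120 without oePsbS water replicate 2. That of NRT1.8 was lost without Col-0 water replicate 3 (0.144), and that of NIA2 without any 1 of 6 libraries of oePsbS or oePsbSoeβCA1, at most 0.0638.

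Bicarbonate was compared with water within each genotype, to ask whether the supply of bicarbonate altered these genes. No member passed both an adjusted p under 0.05 and a 2-fold change in any genotype (7 members tested in each), where 0.313% of all genes did so in Col-0, 0.252% in npq4-1, 1.34% in oePsbS, 0.775% in oePsbSoeβCA1 and 1.31% in oePsbSoeβCA1βCA2. By adjusted p alone, 1 member passed in Col-0 (all genes 0.51%), 1 in npq4-1 (1.06%), 2 in oePsbS (15.4%), and 0 in oePsbSoeβCA1 (1.93%) and oePsbSoeβCA1βCA2 (2.01%). Of these 35 member tests in edgeR, 10 had an unadjusted p under 0.05, and DESeq2 gave 4 with an adjusted p under 0.05 and 0 past both limits. Here and below, counts at an unadjusted p and counts from DESeq2 have no share of all genes beside them. They are thus not read as a result. In the mean of the 5 genotype responses, fitted on 30 libraries, 0 members passed both limits (all genes 0.8%) and 2 passed by adjusted p (15.8%), with 3 at an unadjusted p under 0.05 in edgeR. The median log2 fold change of the tested members was -0.18 in Col-0, 0.03 in npq4-1, 0.24 in oePsbS, -0.11 in oePsbSoeβCA1 and 0.11 in oePsbSoeβCA1βCA2, where the median of all genes lay between -0.01 and 0.01 in each.

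NRT1.7 had lower means after bicarbonate in all 5 genotypes, and it passed the test in Col-0 and npq4-1. In Col-0 it had 22.4, 26.1 and 20.4 CPM with bicarbonate, against 35.7, 34.9 and 36.7 CPM with water. The bicarbonate libraries lay below all water libraries, and NRT1.7 fell by 0.64 ± 0.10 on the log2 scale (SE, 6 libraries, edgeR quasi-likelihood adjusted p = 0.0308). With 1 library left out the log2 fold change stayed between -0.74 and -0.55, but the call was lost for 5 of the 6 libraries, all except bicarbonate replicate 2 (adjusted p up to 0.133). In npq4-1 it had 21.9, 24.2 and 26.1 CPM with bicarbonate, against 32.1, 34.3 and 35.1 CPM with water. Again the groups did not overlap, and NRT1.7 fell by 0.50 ± 0.09 (SE, adjusted p = 0.0367 in edgeR). This call too was lost for 5 of 6 libraries left out, all except bicarbonate replicate 1, with log2 fold changes of -0.56 to -0.46 (adjusted p up to 0.187).

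In oePsbS, NRT1.7 had 27.4, 16.6 and 21.2 CPM with bicarbonate, against 30.3, 29.1 and 27.2 CPM with water. The highest bicarbonate library was just above the lowest water library, and the log2 fold change was -0.40 ± 0.15 (SE, adjusted p = 0.0888 in edgeR). In oePsbSoeβCA1 it had 34.9, 25.3 and 25.7 CPM with bicarbonate, against 33.0, 31.9 and 37.2 CPM with water, so bicarbonate replicate 1 was as high as the water libraries (log2 fold change -0.25 ± 0.13, SE, or -0.18 without the library labelled bicarbonate replicate 3). In the libraries labelled oePsbSoeβCA1βCA2 it had 32.1, 22.1 and 28.0 CPM with bicarbonate, against 40.2, 32.4 and 38.1 CPM with water, without overlap (log2 fold change -0.42 ± 0.14, SE, adjusted p = 0.213 in edgeR). Over the 5 genotypes together NRT1.7 fell by 0.44 ± 0.06 (SE, 30 libraries, adjusted p = 2.29e-05 in edgeR), 0.735 times its level with water. The call was kept with each of the 30 libraries left out in turn, and the mean was -0.43 without the library labelled oePsbSoeβCA1 bicarbonate replicate 3. No difference between genotypes in this response passed, the nearest being oePsbSoeβCA1 minus Col-0 with 0.39 ± 0.20 (SE, adjusted p = 0.577 in edgeR), or 0.46 with that library dropped (adjusted p = 0.572).

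NRT1.1 went the other way, by a smaller amount. In oePsbS it had 84.2, 77.2 and 82.5 CPM with bicarbonate, against 66.2, 61.7 and 67.5 CPM with water, without overlap. It rose by 0.33 ± 0.07 on the log2 scale there (SE, adjusted p = 0.0130 in edgeR) and by 0.17 ± 0.04 in the mean of the 5 genotypes (SE, adjusted p = 0.0102). The call in oePsbS was lost without water replicate 2 (log2 fold change 0.29, adjusted p = 0.0760), and the call of the mean was kept with each of the 30 libraries left out. The other genotypes had log2 fold changes of 0.21 in Col-0, 0.02 in npq4-1, 0.12 in oePsbSoeβCA1, with or without the library labelled bicarbonate replicate 3, and 0.18 in oePsbSoeβCA1βCA2, none of which passed.

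**Figure D2:**
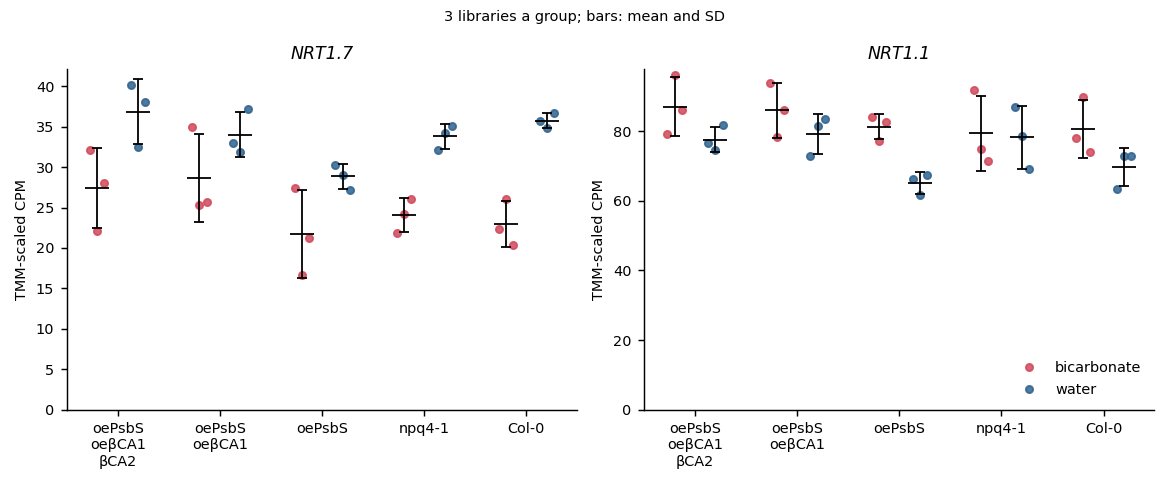
CPM of NRT1.7 (left panel) and NRT1.1 (right panel) in each library, bicarbonate left of water within each genotype, with the mean and SD of 3 libraries; axes start at 0. The NRT1.7 mean was lower with bicarbonate in each genotype, and in oePsbS the NRT1.1 libraries with bicarbonate all lay above those with water.

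NIR1 passed in oePsbS and in no other genotype. It had 252, 291 and 266 CPM with bicarbonate, against 243, 200 and 183 CPM with water, so the groups were separate by a small margin. The log2 fold change was 0.38 ± 0.10 (SE, adjusted p = 0.0334 in edgeR). The call was lost without water replicate 2 (0.34), water replicate 3 (0.29), bicarbonate replicate 2 (0.30) or bicarbonate replicate 3 (0.37), with an adjusted p of up to 0.136. In the mean of the 5 genotypes it was 0.01 with a 95% confidence interval of -0.13 to 0.14. The response of NIR1 in oePsbS minus that in Col-0 was 0.47 ± 0.21 (SE, adjusted p = 0.327), so a difference between genotypes was not shown.

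The nitrate reductase genes NIA1 and NIA2 had no passing response to bicarbonate. NIA1 had 105, 109 and 139 CPM with bicarbonate in Col-0, against 140, 149 and 148 CPM with water (log2 fold change -0.31 ± 0.11, SE, adjusted p = 0.398 in edgeR). The Col-0 groups did not overlap, but replicate 3 with bicarbonate all but reached the lowest water library. In the mean of the 5 genotypes the log2 fold change was -0.06 for NIA1 (95% confidence interval -0.21 to 0.09), -0.05 for NIA2 (-0.21 to 0.10), 0.10 for UPM1 (-0.03 to 0.23) and -0.04 for NRT1.5 (-0.16 to 0.09).

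**Figure D3:**
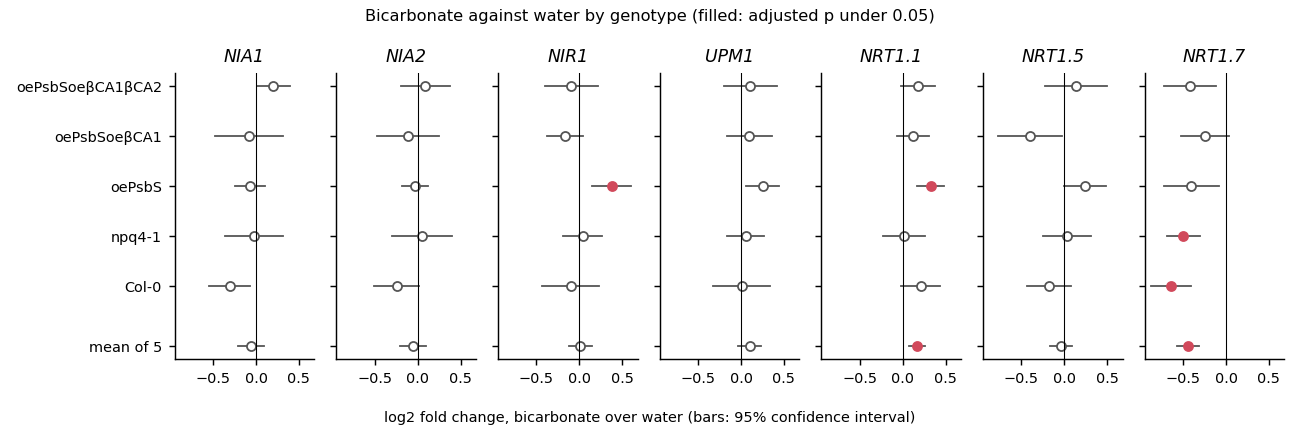
Log2 fold change of bicarbonate over water for the 7 members tested in every genotype, with 95% confidence intervals; filled points have an adjusted p under 0.05 in edgeR. NRT1.7 lies below 0 in each genotype, and the filled points of NIR1 and NRT1.1 lie above 0 in oePsbS.

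NRT1.8 did not reach the low-count filter of the edgeR fits within a genotype. In Col-0 it had 6, 2 and 2 reads with bicarbonate, against 8, 11 and 38 reads with water, where 1 water library held most of the reads. In npq4-1 it had 1, 4 and 3 reads with bicarbonate, against 6, 9 and 18 with water. In neither genotype did the groups overlap. DESeq2, with its own filter, gave a log2 fold change of -2.56 ± 0.85 in Col-0 (SE, adjusted p = 0.136), no adjusted p in npq4-1 and oePsbS, and none under 0.05 in the βCA lines. The mean over the 5 genotypes was -0.71 ± 0.33 on the log2 scale (SE, adjusted p = 0.159 in edgeR). NRT2.1 had a mean of -0.23 with a 95% confidence interval of -0.79 to 0.34, so a change of that size was not detectable at this depth.

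Clock genes also differed between the treatments in several genotypes. An index of 4 morning genes minus later ones, as the difference of log2 levels, was 5.09 ± 0.12 with bicarbonate in npq4-1, against 4.29 ± 0.14 with water (SD, n = 3 each), and 5.10 ± 0.09 with bicarbonate in oePsbS, against 4.45 ± 0.26 with water. In Col-0 it was 4.83 ± 0.18 with bicarbonate, against 4.47 ± 0.31 with water, with overlap. Its means were also higher with bicarbonate in oePsbSoeβCA1 (4.64 against 3.99 with water, and 4.61 without the library labelled bicarbonate replicate 3), without overlap, and in the libraries labelled oePsbSoeβCA1βCA2 (4.30 against 4.18 with water), with overlap. The 5 rosette leaf markers summed to 39342 to 41167 CPM with bicarbonate in oePsbS, against 31769 to 34911 CPM with water. In npq4-1 they were also higher, with 37178 to 39346 CPM against 33653 to 35189 CPM. In oePsbSoeβCA1 they were lower with bicarbonate (31414 to 34500 CPM) than with water (34842 to 37450 CPM). In Col-0 and oePsbSoeβCA1βCA2 the treatments overlapped. The part of the clock index and of the leaf markers in the NRT1.7, NRT1.1 and NIR1 results was not tested. Vasculature markers, which include the phloem companion cell gene SUC2, summed to 117 to 174 CPM with bicarbonate, against 108 to 144 CPM with water, and in tissue of mixed cell types fewer cells of a type and less RNA per cell cannot be told apart.

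The genotypes were set against Col-0 at each treatment, to ask whether these genes differed from the wild type. In the libraries labelled oePsbSoeβCA1βCA2, βCA1 reads lay within the Col-0 range, as given above. With water, 0 members passed both limits, where 0.158% of all genes did so in npq4-1, 1.24% in oePsbS, 0.0421% in oePsbSoeβCA1 and 0.0211% in oePsbSoeβCA1βCA2, and 0 passed by adjusted p, where 0.705%, 8.56%, 0.0684% and 0.0737% of all genes did so in that order. With bicarbonate, again 0 passed both limits (all genes 0.0211%, 0.0579%, 0.974% and 1.18%, in the same order of genotypes) and 0 passed by adjusted p (0.0421%, 0.274%, 2.38% and 2.09%). In edgeR, 6 of 36 member tests with water and 6 of 36 with bicarbonate had an unadjusted p under 0.05, and DESeq2 gave 0 and 1 with an adjusted p under 0.05. NIA1 in oePsbS came nearest, with 167, 192 and 196 CPM with bicarbonate, against 105, 109 and 139 CPM in Col-0 with bicarbonate. The groups did not overlap, and the log2 fold change was 0.65 ± 0.16 (SE, adjusted p = 0.0838 in edgeR). This was the 1 test that passed by adjusted p in DESeq2 (0.0118).

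The 2 βCA lines were then set against oePsbS, the background they share. The paper reports less PsbS protein in both βCA lines than in oePsbS, near the Col-0 level. These comparisons can thus differ in PsbS as well as in βCA, and these cannot be told apart. With bicarbonate, no difference in βCA1 or βCA2 reads passed between the libraries labelled oePsbSoeβCA1βCA2 and oePsbS, as given above. PsbS reads of these lines are not given here. NIA1 passed the test in 3 of these 4 comparisons and NIA2 in 1, each time with a lower level than in oePsbS. No member passed both limits, where with water 0.711% of all genes did so in oePsbSoeβCA1 and 1.59% in oePsbSoeβCA1βCA2, and with bicarbonate 3.16% and 1.88%. By adjusted p, 1 member passed in oePsbSoeβCA1 with water (all genes 5.75%), 1 in oePsbSoeβCA1βCA2 with water (13.7%), 3 in oePsbSoeβCA1 with bicarbonate (19.5%) and 0 in oePsbSoeβCA1βCA2 with bicarbonate (8.5%). Of these 36 tests in edgeR, 17 had an unadjusted p under 0.05, and DESeq2 gave 6 with an adjusted p under 0.05 and 0 past both limits. The shares of all genes for these 2 counts are not given here, so neither shows an excess among the members. The DESeq2 call absent from edgeR was NRT1.7, higher in oePsbSoeβCA1 with bicarbonate (log2 fold change 0.40, adjusted p = 0.0435 in DESeq2). Without the library labelled oePsbSoeβCA1 bicarbonate replicate 3 its log2 fold change in edgeR was 0.47 (adjusted p = 0.0510). These 4 comparisons use the same oePsbS libraries at each treatment, so their results are not independent of each other. The counts by adjusted p in edgeR are few and lie near what their shares of all genes would give for 9 genes.

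With water, NIA1 had 173, 135 and 89.4 CPM in oePsbSoeβCA1, against 186, 193 and 207 CPM in oePsbS. All 3 lay below the oePsbS libraries, with a wide spread among them, and the log2 fold change was -0.56 ± 0.16 (SE, adjusted p = 0.0388 in edgeR). Without oePsbSoeβCA1 water replicate 3, the lowest library, it was -0.34 and no longer passed (adjusted p = 0.267). The call was also lost without oePsbSoeβCA1 water replicate 2 (-0.56) and without oePsbS water replicate 2 (-0.56) or 3 (-0.51). In the libraries labelled oePsbSoeβCA1βCA2, NIA1 had 115, 135 and 134 CPM with water, below oePsbS in each, and a log2 fold change of -0.61 ± 0.16 (SE, adjusted p = 0.0117 in edgeR). That call was lost without oePsbS water replicate 3 (-0.56, adjusted p = 0.0588) or oePsbSoeβCA1βCA2 water replicate 1 (-0.54, adjusted p = 0.0505).

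With bicarbonate, NIA1 had 130, 126 and 118 CPM in oePsbSoeβCA1, against 167, 192 and 196 CPM in oePsbS. The groups stood clearly apart, and the log2 fold change was -0.57 ± 0.16 (SE, adjusted p = 0.0148 in edgeR), or -0.54 without the library labelled oePsbSoeβCA1 bicarbonate replicate 3. NIA2 had 614, 639 and 696 CPM in oePsbSoeβCA1, against 897, 991 and 989 CPM in oePsbS. It was lower in each library, with a log2 fold change of -0.56 ± 0.17 (SE, adjusted p = 0.0196 in edgeR), or -0.62 without that library. Without oePsbS bicarbonate replicate 2 or 3 neither gene passed (adjusted p between 0.0544 and 0.0687), with log2 fold changes of -0.54 and -0.53 for NIA1 and of -0.54 in both cases for NIA2. NIA2 also missed the limit without oePsbSoeβCA1 bicarbonate replicate 1 (-0.53) or 2 (-0.55).

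With water NIA2 in oePsbSoeβCA1 had 933, 649 and 528 CPM, against 1054, 935 and 977 CPM in oePsbS, and its log2 fold change of -0.49 ± 0.17 missed the limit (SE, adjusted p = 0.0842 in edgeR). With bicarbonate the libraries labelled oePsbSoeβCA1βCA2 had 146, 141 and 151 CPM of NIA1 and 678, 762 and 812 CPM of NIA2, both below every oePsbS library (log2 fold changes -0.35 and -0.35, adjusted p = 0.186 and 0.193 in edgeR). Against Col-0, by contrast, NIA1 had log2 fold changes of -0.14 in oePsbSoeβCA1 and -0.19 in oePsbSoeβCA1βCA2 with water, and of 0.08 in oePsbSoeβCA1 (0.12 without the library labelled bicarbonate replicate 3) and 0.31 in oePsbSoeβCA1βCA2 with bicarbonate, of which none passed.

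Other measures separated the same groups. With water the clock index was 4.08 to 4.24 in oePsbSoeβCA1βCA2 and 3.94 to 4.05 in oePsbSoeβCA1, against 4.25 to 4.74 in oePsbS. With bicarbonate it was 4.18 to 4.38 in oePsbSoeβCA1βCA2 and 4.45 to 4.76 in oePsbSoeβCA1, below every oePsbS library (5.10 ± 0.09, SD, n = 3). The 8 floral organ markers summed with water to 5.24 to 6.17 CPM in oePsbSoeβCA1βCA2 and 2.37 to 8.51 CPM in oePsbSoeβCA1, against 9.72 to 21.7 CPM in oePsbS, and overlapped with bicarbonate. With bicarbonate the 5 rosette leaf markers summed to 34175 to 37562 CPM in oePsbSoeβCA1βCA2 and 31414 to 34500 CPM in oePsbSoeβCA1. Both lay below oePsbS, with 39342 to 41167 CPM. With water their sum was 36083 to 37975 CPM in oePsbSoeβCA1βCA2, above the 31769 to 34911 CPM of oePsbS. In oePsbSoeβCA1 with water it was 34842 to 37450 CPM and overlapped with oePsbS. The part of the clock genes, of the floral markers and of the leaf markers in the NIA1 and NIA2 results was not tested.

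NRT1.5 had 8.57, 10.0 and 6.86 CPM in oePsbSoeβCA1 with bicarbonate, against 11.3, 11.4 and 12.7 CPM in oePsbS with bicarbonate. Its log2 fold change was -0.47 ± 0.14 (SE, adjusted p = 0.0216 in edgeR). The lowest of these values belonged to the library labelled oePsbSoeβCA1 bicarbonate replicate 3, and without it the log2 fold change was -0.35 and did not pass (adjusted p = 0.120). The call was also lost without oePsbSoeβCA1 bicarbonate replicate 1 (-0.49) and without oePsbS bicarbonate replicate 2 (-0.50) or 3 (-0.42). The 12 root markers summed to 33.8 to 43.6 CPM in oePsbSoeβCA1 with bicarbonate, against 32.8 to 37.7 CPM in oePsbS with bicarbonate, and overlapped. The 8 vasculature markers did not overlap, with 123 to 134 CPM in oePsbSoeβCA1, against 142 to 174 CPM in oePsbS. The part of either in NRT1.5 was not tested.

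**Figure D4:**
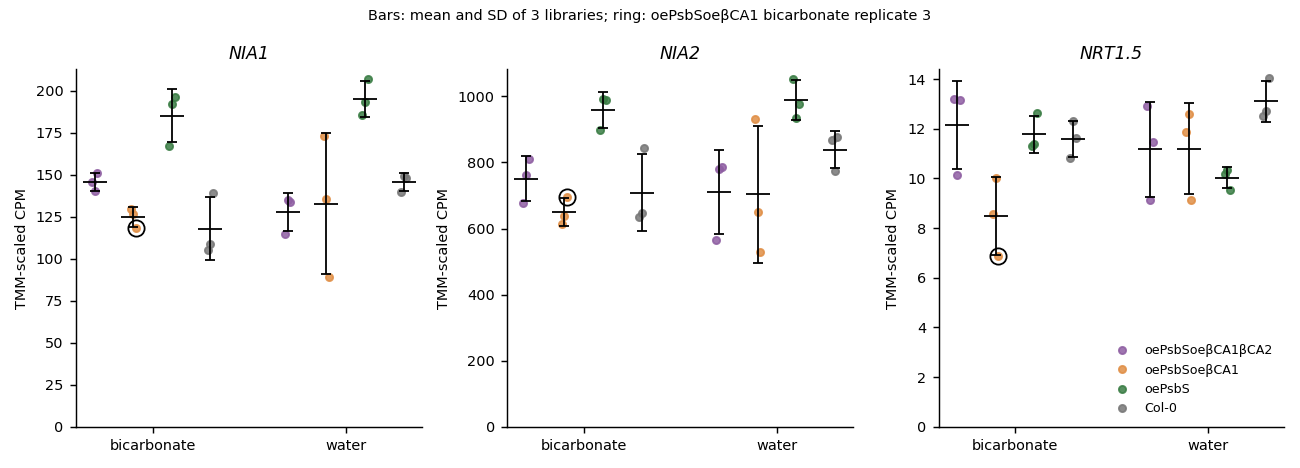
CPM of NIA1, NIA2 and NRT1.5 in each library of oePsbSoeβCA1βCA2, oePsbSoeβCA1, oePsbS and Col-0 (left to right within a treatment), with the mean and SD of 3 libraries; axes start at 0, and the ring marks oePsbSoeβCA1 bicarbonate replicate 3. NIA1 of both βCA lines lay below oePsbS at both treatments.

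Whether bicarbonate acted differently in the genotypes was tested directly as the difference of responses. None of the 9 members passed both limits in any of 6 differences, where all genes did so at 0% (npq4-1 minus Col-0), 0.0211% (oePsbS minus Col-0), 0% (oePsbSoeβCA1 minus Col-0), 0.574% (oePsbSoeβCA1βCA2 minus Col-0), 2.13% (oePsbSoeβCA1 minus oePsbS) and 3.12% (oePsbSoeβCA1βCA2 minus oePsbS). By adjusted p alone 0 members passed as well, where the shares of all genes in the same order were 0%, 0.0316%, 0%, 0.726%, 8.06% and 13.1%. In edgeR, 8 of 54 member tests had an unadjusted p under 0.05, and DESeq2 gave 1 with an adjusted p under 0.05. The nearest was NRT1.5 in oePsbSoeβCA1 minus oePsbS, with -0.63 ± 0.20 (SE, adjusted p = 0.0504 in edgeR), and -0.51 (adjusted p = 0.133) when the library labelled oePsbSoeβCA1 bicarbonate replicate 3 was dropped.

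NIA1 and NIA2 followed each other across all libraries. Their log2 CPM had a Pearson correlation of 0.917 (Spearman 0.927) over 30 libraries, and each was the other's closest match among the 18999 genes tested. The deviations from the group means correlated at 0.870, so the likeness was present within groups as well as between them. Within groups it was not particular to the pair. Deviations of NIA2 correlated at 0.910 with ASN2 and at 0.830 with UPM1, and those of NIA1 at 0.729 with UPM1. With the transporters, deviations of NIA1 and NIA2 correlated at -0.430 to 0.397. NIA1 made up 14.2% to 18.2% of the summed TPM of the pair in the 30 libraries, with a mean of 16.2% ± 1.16 (SD). These correlations are descriptions over libraries that share their groups and a scaling, and no p is given.

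**Figure D5:**
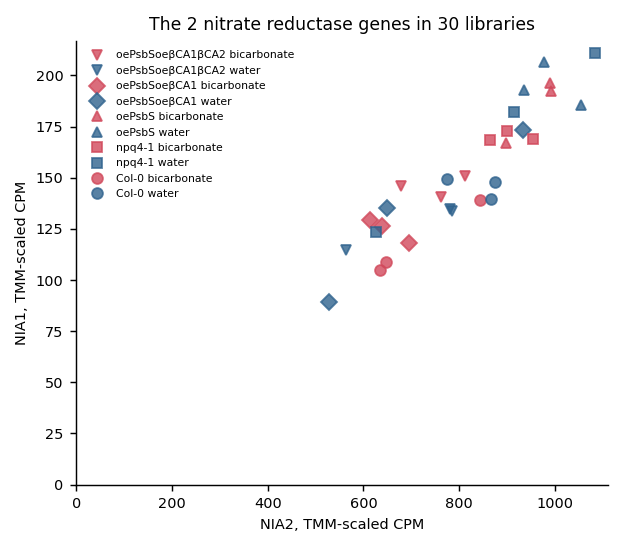
NIA1 against NIA2 in CPM, 1 point per library, with colour for treatment and shape for genotype; both axes start at 0. The points follow 1 line, with a Pearson correlation of 0.917 on the log2 scale, and the oePsbS libraries lie toward its upper end.

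Other likenesses were weaker or lay outside the pathway. UPM1 and NIR1, which uses the siroheme that UPM1 helps to make, correlated at 0.764 (0.807 in the deviations from group means), and NIR1 was the second closest match of UPM1. NIA1 and NIR1, consecutive steps of nitrate reduction, correlated at 0.199 over all libraries and at 0.533 in the deviations from group means. For NIA2 and NIR1 these were 0.344 and 0.671. The closest genes to NIA2 after NIA1 were the protein kinase gene CIPK3 (0.849) and the asparagine synthetase gene ASN2 (0.838), and the closest to NIR1 was the chlorophyll synthase gene G4 (0.846). For NRT1.7 they were AT4G16146 (0.897), the coronatine-induced gene CORI3 (0.895) and AT2G41800 (0.893). The closest matches of NRT1.1 (0.693), NRT1.5 (0.596), NRT1.8 (0.646) and NRT2.1 (0.678) were lower.

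Genes around the pathway gave larger changes than its members in a few cases. Of 14 tested genes among 18 other nitrate transporters and channels, 1 passed both limits with bicarbonate in Col-0 (all genes 0.313%), 1 in oePsbS (1.34%) and 0 in npq4-1 (0.252%), oePsbSoeβCA1 (13 tested, all genes 0.775%) and oePsbSoeβCA1βCA2 (1.31%). It was NRT2.6, a low-level member of the high-affinity family, with 3, 5 and 3 reads with bicarbonate in Col-0, against 27, 58 and 126 reads with water. It fell by 4.26 ± 0.61 on the log2 scale in Col-0 (SE, adjusted p = 0.0187), by 2.80 ± 0.60 in oePsbS (adjusted p = 0.0126) and by 2.35 ± 0.35 in the mean of 5 genotypes (adjusted p = 3.02e-05, edgeR for all 3). With each library left out in turn the mean was called in 30 of 30 cases, the response in oePsbS in 4 of 6 and that in Col-0 in 2 of 6, with log2 fold changes of -4.63 to -3.61 in Col-0 and -3.70 to -2.23 in oePsbS. Between the lines, AT3G45680 was lower in oePsbSoeβCA1 than in oePsbS with bicarbonate (log2 fold change -1.34, adjusted p = 0.0353 in edgeR) and AT1G33440 lower in oePsbSoeβCA1βCA2 than in oePsbS (adjusted p = 0.0419). Both calls were lost with any 1 of 6 libraries left out, with log2 fold changes of -1.48 to -1.23 for AT3G45680 and -1.36 to -0.94 for AT1G33440, and with the library labelled oePsbSoeβCA1 bicarbonate replicate 3 dropped the log2 fold change of AT3G45680 was -1.23.

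Of 14 tested nitrate signalling regulators, only BT2 passed both limits, in comparisons whose shares of all genes are given above. BT2 encodes a BTB and TAZ domain scaffold protein whose transcript responds to nitrate and sugars. The paper reports its repression by bicarbonate in oePsbS and not in the βCA lines. Here BT2 had 9.88, 7.98 and 6.69 CPM with bicarbonate in oePsbS, against 13.2, 23.8 and 26.4 CPM with water, and fell by 1.37 ± 0.23 (SE, adjusted p = 0.00476 in edgeR). In the libraries labelled oePsbSoeβCA1βCA2 it had 6.31, 10.7 and 10.4 CPM with bicarbonate, against 2.78, 2.91 and 3.03 CPM with water, a rise of 1.66 ± 0.22 (SE, adjusted p = 0.00502). With water BT2 exceeded Col-0 in oePsbS (log2 fold change 2.38 ± 0.35, SE, adjusted p = 0.000143), and it was lower than in oePsbS in oePsbSoeβCA1 (-3.34 ± 0.38) and in oePsbSoeβCA1βCA2 (-2.86 ± 0.37). With bicarbonate it was higher in oePsbSoeβCA1βCA2 than in Col-0 (1.79 ± 0.38, SE, adjusted p = 0.00582). Of these calls, the last was lost without Col-0 bicarbonate replicate 2 (1.61, adjusted p = 0.0566), and the others were kept with any 1 library left out.

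Downstream, 14 of 14 ammonium assimilation genes were tested. With bicarbonate in oePsbS 6 of them passed by adjusted p, 2 higher and 4 lower, where 15.4% of all genes passed, with a median log2 fold change of -0.34 beside a median of -0.00 over all genes. In Col-0 (all genes 0.51%) and npq4-1 (1.06%) 0 passed in edgeR, with 0 and 2 at an unadjusted p under 0.05, and 1 passed in each of oePsbSoeβCA1 (1.93%) and oePsbSoeβCA1βCA2 (2.01%). Against oePsbS 4 passed in oePsbSoeβCA1βCA2 with water and 6 in oePsbSoeβCA1 with bicarbonate, where 13.7% and 19.5% of all genes did. ASN1, an asparagine synthetase known for its repression by light and sugar, passed both limits with bicarbonate in oePsbSoeβCA1, where it had 112, 99.3 and 116 CPM, against 38.3, 51.7 and 70.8 CPM with water (log2 fold change 1.03 ± 0.17, SE, adjusted p = 0.0161 in edgeR). Without the library labelled oePsbSoeβCA1 bicarbonate replicate 3 it was 0.98 (adjusted p = 0.0166), under the 2-fold limit. In the libraries labelled oePsbSoeβCA1βCA2 ASN1 had 121, 115 and 84.3 CPM with bicarbonate, against 70.7, 33.6 and 36.3 CPM with water (adjusted p = 0.0468). With water ASN1 exceeded Col-0 in oePsbS (log2 fold change 1.38 ± 0.43, SE, adjusted p = 0.0464) and was lower in oePsbSoeβCA1βCA2 than in oePsbS (-1.37 ± 0.43, adjusted p = 0.0346). With each of the 6 libraries compared left out in turn, these 4 ASN1 calls were lost in 3, 4, 5 and 4 cases in the order given, with log2 fold changes of 0.83 to 1.28, 1.01 to 1.62, 1.29 to 1.51 and -1.79 to -1.18. Of the 12 genes for molybdenum cofactor, siroheme and plastid reductant supply, 0 passed both limits in any of the 24 comparisons, and in the mean response 1 was higher and 1 lower by adjusted p in edgeR, a share like the 15.8% of all genes, with 2 at an unadjusted p under 0.05.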

How the data were processed

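RNA-seq of rosettes was quantified by the authors with Salmon against TAIR10 transcripts, and the deposited files hold estimated counts and TPM per transcript (48268 in each of 30 files). Version and options of Salmon are not given in the sources used here. Here both were summed per locus and the estimated counts rounded. Tests used edgeR 4.0.16 in R 4.3.3 (TMM, genes with at least 10 counts by its filter, quasi-likelihood F test, Benjamini-Hochberg adjustment over all genes), on 6 libraries for bicarbonate against water and on all 30 otherwise. Genes were called where the adjusted p was below 0.05 and the log2 fold change beyond 1 in size. CPM are TMM-scaled. Alternatives were DESeq2 1.42.0, RLE scaling, no low-count filter, organelle genes left out, other samples in the fit, a replicate block, limma 3.58.1 on log2(TPM + 1), the adjusted p alone, and each library left out in turn (for nitrogen genes outside the 9 and the clock index, a choice made after seeing the data). Named genes are the members, other nitrogen genes past both limits, and the 3 closest genes by correlation. Members, lists and motifs were chosen with earlier results of these data known. Upstream sequence came from the RefSeq annotation of TAIR10.1. The tests were checked on simulated data.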

Additional observations from a re-analysis of the deposited data

Results flagged for a closer look

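The response to bicarbonate differed between genotypes, past both limits in edgeR's quasi-likelihood test of the difference itself, for 3 nitrogen genes outside the 9. Of all genes, 2.13% did so for oePsbSoeβCA1 minus oePsbS and 3.12% for oePsbSoeβCA1βCA2 minus oePsbS. For oePsbSoeβCA1βCA2 minus Col-0 it was 0.574%. The paper already reports that bicarbonate repressed BT2 in oePsbS and not in the βCA lines. For BT2 the response in oePsbSoeβCA1 minus that in oePsbS was 2.84 on the log2 scale (adjusted p = 0.00376), that in oePsbSoeβCA1βCA2 minus oePsbS 3.02 (adjusted p = 0.000757), and that in oePsbSoeβCA1βCA2 minus Col-0 2.27 (adjusted p = 0.0487). For ASN1 the differences were 2.04 for oePsbSoeβCA1 minus oePsbS (adjusted p = 0.0371) and 2.21 for oePsbSoeβCA1βCA2 minus oePsbS (adjusted p = 0.0186). For GDH1, a glutamate dehydrogenase subunit gene, the response in oePsbSoeβCA1βCA2 minus that in oePsbS was 1.18 (adjusted p = 0.0147). Those against oePsbS share its libraries, and no member of the 9 differed in this way. Without the library labelled oePsbSoeβCA1 bicarbonate replicate 3, BT2 in oePsbSoeβCA1 minus oePsbS was 2.69 (adjusted p = 0.00968) and ASN1 1.98 (adjusted p = 0.0676, no longer past the limit). With each of 12 libraries left out in turn, the BT2 differences against oePsbS were called in 12 of 12 cases each and that against Col-0 in 2 of 12 (at least 2.09, adjusted p up to 0.145). ASN1 was called in 4 of 12 cases for oePsbSoeβCA1 (1.69 to 2.58) and 9 of 12 for oePsbSoeβCA1βCA2 (1.86 to 2.75), and GDH1 in 10 of 12 (1.00 to 1.46), lost without oePsbSoeβCA1βCA2 water replicate 2 or bicarbonate replicate 2.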

How the results depend on the processing

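No result reversed in sign under the alternatives run. By adjusted p alone, the count of members called was 1 in Col-0, 1 in npq4-1 and 2 in oePsbS for bicarbonate against water, 2 for the mean of the 5 genotypes, and against oePsbS 1 in oePsbSoeβCA1 and 1 in oePsbSoeβCA1βCA2 with water and 3 in oePsbSoeβCA1 with bicarbonate, each beside 0 under both limits. For any difference among the 10 groups the count was 5, and 3 with limma on log2 TPM. Leaving out each library in turn gave 3 to 6, with 3 without oePsbS water replicate 1 or 3, oePsbS bicarbonate replicate 3 or oePsbSoeβCA1 bicarbonate replicate 1. The NRT1.7 and NRT1.1 means over 5 genotypes passed in 36 of 36 alternatives. The single-genotype results were less steady, with NRT1.7 passing in 7 of 13 alternatives in Col-0 and 6 of 13 in npq4-1, NIR1 in 7 of 13 and NRT1.1 in 11 of 13 in oePsbS. In the replicate block fit, whose numbers pair nothing in the labels (3 of 15 same-numbered correlations over 0.1), 0 members were called in any comparison by both limits and 5 among the 10 groups; by adjusted p it gave 3 in oePsbS with bicarbonate and 4 in oePsbSoeβCA1 against oePsbS with bicarbonate. Depth limits NRT1.8 and NRT2.1 most, at 38 reads or fewer a library.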
